A study of Oryza sativa with 8 samples.

Results

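The OsHox genes of rice encode homeodomain proteins of the HD-Zip family. They were taken as every gene whose symbol or synonym is HOX or OsHOX followed by digits, with case ignored, so that the KNOX meristem gene OSH1 was left out. Of 26 such genes in the gene table, 25 had a probe set paired with that gene alone, and OsHox3 did not. These 25 are among 17905 genes with such a probe set. For a gene with several probe sets, the one with the highest mean over all 8 arrays was used, a choice that does not look at genotype. By the usual division of the family, 12 of the 25 belong to HD-Zip class I, 8 to class II and 5 to class III.

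The samples were 8 RNA preparations, each on its own Affymetrix rice array, with 2 biological replicates in each of 4 groups. The groups were wild-type Hejiang19, a rice cultivar, and Hejiang19 that overexpresses Ghd7, a regulator of heading date, plant height and grain number, each sampled as young leaves of 35-day-old vegetative plants and as developing panicles of 0.1 cm. All plants grew in the field, and all samples were taken 3 hours after dawn. The labels give neither the promoter that drives the transgene nor the number of transgenic lines, and no probe set was paired with Ghd7, so overexpression was not checked here.

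HD-Zip proteins occur in plants. Each joins a homeodomain, which binds DNA, to a leucine zipper through which the proteins pair. Class I genes are known for roles in responses to drought and abscisic acid and in growth, and class II genes for roles in auxin, light and leaf development, with OsHox1 acting as a transcriptional repressor. Class III proteins also carry a START domain and act in the adaxial side of leaves, in the vasculature and in meristems, and their transcripts are targets of the microRNA miR166.

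Values are log2 expression values. Precision is limited by having 2 arrays in a group. The median probe set read 4.49 to 4.53 on the leaf arrays but 6.13 to 6.15 on the panicle arrays, so differences between genotypes were taken within a tissue and differences between tissues were read under 3 scalings. A group mean below its arrays' median is called dim here, since such a value may be background. By that mark 17 of the 25 genes were above the median in both leaf groups and 21 in both panicle groups. Leaf markers (the Rubisco small subunit gene OsrbcS, RCABP69, GOS5 and CAB2R, matched from 6 names) lay at percentile 99.8 or above of the arrays in leaves and at 28.3 to 81.5 in panicles. The 10 markers of young panicles, floral MADS genes and meristem genes, lay at percentiles 51.0 to 99.2 in panicles and 2.43 to 74.2 in leaves.

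**Figure D1:**
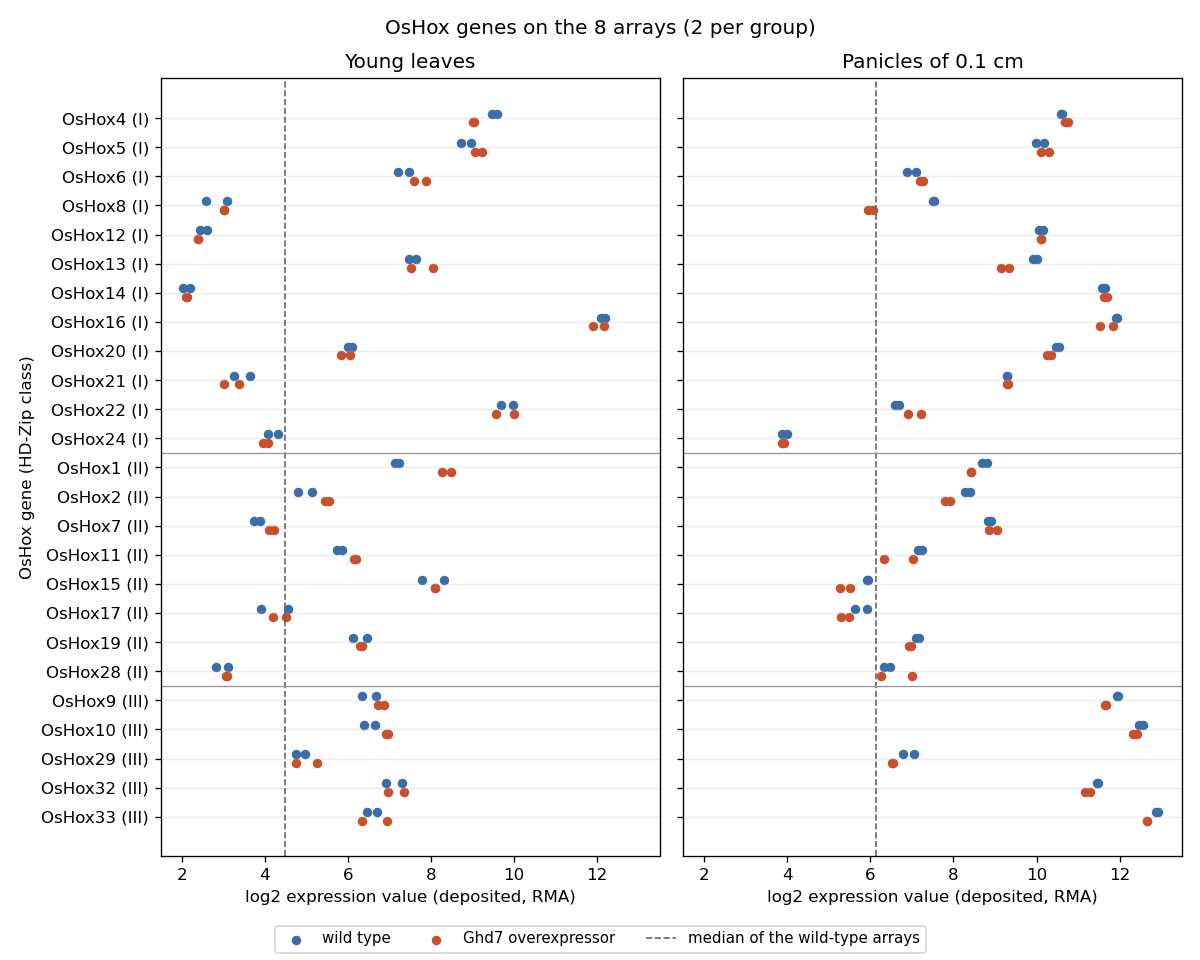
Deposited log2 values of the 25 OsHox genes (rows, by HD-Zip class) on each array, with leaves on the left and panicles of 0.1 cm on the right; each point is 1 array and the dashed line is the median of the wild-type arrays. In panicles, the overexpressor points of all 5 class III genes lie to the left of the wild-type points, and OsHox8 shows the widest gap between genotypes.

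In leaves 1 class II gene rose and 1 class I gene fell in the overexpressor. These are 2 of 25 genes, or 8.0%, beside 4.42% of all 57194 probe sets (1.37% higher, 3.05% lower) and 8.76% of genes by their brightest probe set (2.41% higher, 6.34% lower), so the share called was near the background. OsHox1 (LOC4349388), a class II repressor studied for its part in vascular differentiation, read 7.22 and 7.14 in wild-type leaves and 8.49 and 8.25 in transgenic leaves. Both transgenic arrays lay above both wild-type arrays. OsHox1 rose by 1.19 ± 0.13 (log2 ± SE, n = 2 arrays per group), which is 2.28-fold (limma, adjusted p = 0.00123), with a 95% interval of 0.91 to 1.48. In whole leaves, more cells that express a gene and more of its RNA per cell cannot be told apart.

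OsHox4 (LOC4347333), a class I gene whose overexpression is known to shorten rice internodes and dampen gibberellin responses, read 9.46 and 9.58 in wild-type leaves and 9.03 and 9.01 in transgenic leaves. The genotypes did not overlap. OsHox4 fell by 0.50 on the log2 scale, with an SE of 0.11, or 1.41-fold (limma, adjusted p = 0.0391). It has 1 probe set, so 1 of the 12 other settings, the averaging of probe sets, left its value unchanged. The call was lost in 6 of 12 other settings and without 7 of the 8 arrays in turn, with adjusted p = 0.0155 to 0.584 over the settings and 0.0418 to 0.168 over the arrays left out.

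At an unadjusted p under 0.05, 5 of 25 OsHox genes were higher and 1 was lower in transgenic leaves. The background at that threshold was 8.01% higher and 8.84% lower among all probe sets, and 9.38% and 16.4% among genes by their brightest probe set. The median difference over the 25 genes was 0.10, where the median over all probe sets was 0.03.

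The 8 class II genes all had a difference above 0 in leaves, with a median of 0.24 and a range of 0.03 to 1.19, and OsHox1 passed. Over all probe sets 43.5% of differences were below 0, and over genes by their brightest probe set 53.4%. OsHox15, OsHox17, OsHox19 and OsHox28 read below 0 when 1 of the leaf arrays was left out. OsHox2, which lies close to OsHox28 in the genome, read 4.80 and 5.13 in wild-type leaves and 5.55 and 5.46 in transgenic leaves. Its difference of 0.53 ± 0.14 had adjusted p = 0.0728 (limma). It passed at 0.74 with quantile normalization of all arrays (adjusted p = 0.0291), with p adjusted over genes (0.0400) and at 0.70 without wild-type replicate 2 (0.0382). The values for OsHox7 and OsHox11 were 0.35 ± 0.12 and 0.36 ± 0.20, also without overlap between genotypes, although OsHox7 was dim in leaves. The second probe set of OsHox7, also dim in leaves, read 0.07 ± 0.15, with overlap between genotypes. OsHox15, OsHox17, OsHox19 and OsHox28 lay between 0.03 and 0.12.

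The 5 class III genes also read above 0 in leaves, from 0.06 to 0.43, and none passed. OsHox29, OsHox32 and OsHox33 read below 0 without 1 of the leaf arrays. OsHox10, also called OsHB1, had the widest difference of this class at 0.43 ± 0.13 (limma, adjusted p = 0.120), while its dimmer second probe set read -0.11 ± 0.16. Over all members, both transgenic leaf values exceeded both wild-type values in 8 genes, or 32.0%, against 20.7% of genes by their brightest probe set and 25.2% of all probe sets. They were below both wild-type values in 2 genes, OsHox4 and OsHox12, or 8.0%, against 27.5% and 18.3%. OsHox12 was dim in leaves.

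Class I, apart from OsHox4, gave no call in leaves. OsHox6, OsHox22 and OsHox24 are class I genes known to respond to water deficit. Their leaf differences were 0.40 ± 0.15, -0.06 ± 0.18 and -0.18 ± 0.13, with adjusted p = 0.213, 0.925 and 0.541 (limma). The 95% interval of OsHox22 ran from -0.46 to 0.34, so a change of that size could have gone unseen, and OsHox24 was dim in both leaf groups. OsHox5 read 0.30 ± 0.14, OsHox13 0.22 ± 0.18, OsHox16 -0.12 ± 0.14 and OsHox20 -0.11 ± 0.12. The second probe set of OsHox20 read -0.44 ± 0.15 (limma, adjusted p = 0.160), without overlap between genotypes, so the size of its difference depends on the probe set. OsHox8, OsHox12, OsHox14 and OsHox21 were dim in leaves of both genotypes, with differences from -0.25 to 0.18.

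**Figure D2:**
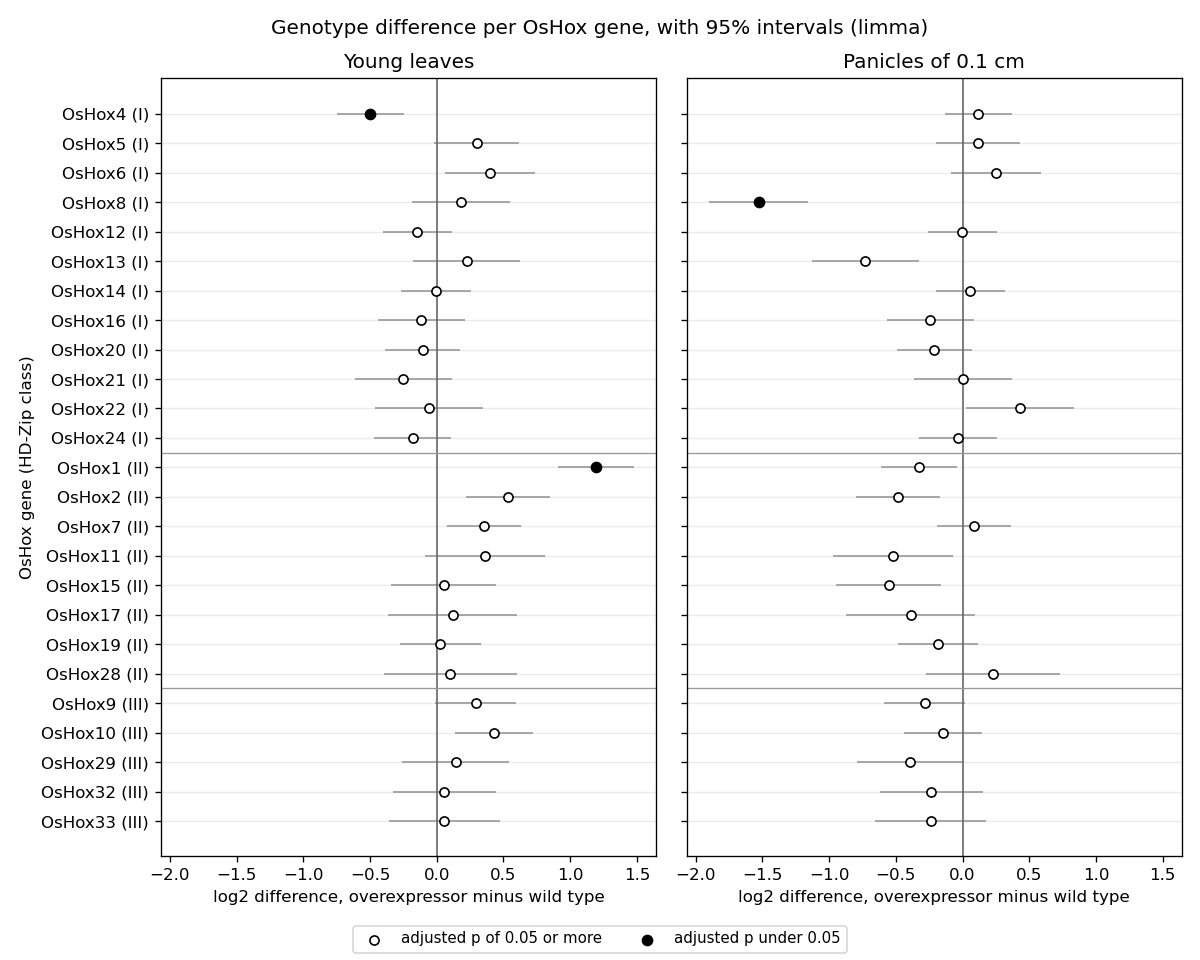
Log2 difference between overexpressor and wild type for each OsHox gene in leaves (left) and panicles (right), with 95% intervals from the limma fit; filled points passed at an adjusted p under 0.05. OsHox1 at 1.19 and OsHox4 at -0.50 are filled in leaves and OsHox8 at -1.53 in panicles, and all 5 class III genes lie below 0 in panicles.

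In panicles of 0.1 cm 1 class I gene fell and no OsHox gene rose. This is 1 of 25 genes, or 4.0%, beside 2.89% of all probe sets (1.05% higher, 1.84% lower) and 3.69% of genes by their brightest probe set (1.65% higher, 2.04% lower), again close to the background. OsHox8 (LOC4348492), a class I gene, read 7.54 and 7.52 in wild-type panicles and 5.93 and 6.07 in transgenic panicles. The wild-type arrays lay far above the transgenic ones. OsHox8 fell by 1.53, with an SE of 0.16, which is 2.89-fold (limma, adjusted p = 0.00161). The transgenic mean of 6.00 was just below the array median of 6.14, so the fall may be understated. OsHox8 went from percentile 63.3 of the array to percentile 48.2. In leaves OsHox8 was dim in both genotypes, at percentiles 17.5 and 20.4. Its probe set is of the kind that Affymetrix marks as shared by several transcripts (s_at), so signal of related transcripts may enter its value.

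At an unadjusted p under 0.05, 6 of 25 OsHox genes were lower in transgenic panicles and 1, OsHox22, was higher. The background was 7.75% lower and 7.51% higher among all probe sets, and 8.47% and 7.74% among genes by their brightest probe set. The median over the 25 genes was -0.21, against 0.02 over all probe sets.

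OsHox13, another class I gene, came next. It read 10.01 and 9.92 in wild-type panicles and 9.34 and 9.14 in transgenic panicles, a difference of -0.73 ± 0.18 with adjusted p = 0.0710 (limma). It passed with array weights (adjusted p = 0.0311) and without either transgenic leaf array (adjusted p = 0.0408), so it sits at the threshold. In class II, OsHox15 read -0.55 ± 0.17 from values that were dim in both genotypes, OsHox11 -0.52 ± 0.20 and OsHox2 -0.48 ± 0.14, with adjusted p = 0.157, 0.245 and 0.127. The transgenic replicates of OsHox11 stood apart at 7.02 and 6.33, so the difference was -0.18 without replicate 2 (adjusted p = 0.762) and -0.87 without replicate 1 (adjusted p = 0.0247). OsHox17, OsHox1 and OsHox19 read -0.39, -0.33 and -0.18, whereas OsHox7 and OsHox28 read 0.09 and 0.23. A second probe set of OsHox19, dim in panicles, read 0.13, and the mean of all its probe sets read 0.02. That mean includes a further set, dim in panicles and marked as antisense by its name, which read 0.12. OsHox17 was dim in all 4 groups.

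The class III genes gave the most uniform picture in panicles, with small differences. OsHox9 read 11.94 and 11.95 in wild type and 11.68 and 11.64 in the overexpressor. OsHox10 read 12.47 and 12.55 against 12.42 and 12.31. OsHox33, a gene with a reported part in rice leaf senescence, read 12.87 and 12.92 against 12.65 and 12.66. In each of them both transgenic arrays lay below both wild-type arrays.

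The same held for OsHox32, a gene of leaf shape, with 11.45 and 11.48 against 11.30 and 11.16. It also held for OsHox29, with 7.06 and 6.79 against 6.54 and 6.52. The differences of the 5 genes were -0.15 to -0.39 with a median of -0.24, and none passed (limma, adjusted p = 0.342 to 0.689, and none at an unadjusted p under 0.05). The 95% intervals reached from -0.79 at OsHox29 to 0.18 at OsHox33. The second probe set of OsHox10 read 0.08 ± 0.16, in the other direction.

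Counted over the family, both transgenic panicle values lay below both wild-type values in 15 of 25 genes, or 60.0%, against 31.3% of genes by their brightest probe set and 24.0% of all probe sets. They lay above in 3 genes, OsHox4, OsHox6 and OsHox22, or 12.0%, against 30.1% and 27.3%. The 15 comprised 5 of 5 class III genes, 6 of 8 class II genes and 4 of 12 class I genes. The count was 16 under each of 3 other scalings and 13 when all probe sets of a gene were averaged. That average includes sets marked as antisense for OsHox16 and OsHox19. These counts describe 2 arrays per group and carry no test.

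Markers moved in the same comparison. In transgenic panicles 3 of 4 leaf markers fell. Their mean log2 level was 8.43 and 8.44 on the wild-type panicle arrays and 7.50 and 6.71 on the transgenic ones. Of the 10 young panicle markers 6 fell, all floral MADS genes, and 1, the spikelet meristem gene FZP, rose. Their mean level was 11.08 and 11.03 in wild type and 9.82 and 9.88 in the overexpressor. OSH1, a meristem gene, did not pass, at 0.22 ± 0.11 (limma, adjusted p = 0.426). The part of these shifts in the OsHox values was not tested. In leaves no marker of either list passed, and the mean of the leaf markers was 13.67 and 13.69 against 13.59 and 13.58.

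Among class I genes with a strong panicle signal, 3 had differences within 0.06 of 0. OsHox14, a gene with a known part in rice panicle development, read 11.64 and 11.57 in wild type and 11.63 and 11.70 in the overexpressor, a difference of 0.06 ± 0.12 with a 95% interval of -0.20 to 0.32. OsHox12, known to activate the gibberellin-inactivating gene EUI1 in rice panicles, read 10.16 and 10.06 against 10.10 and 10.12. Its 95% interval was -0.26 to 0.26. The genotypes overlapped in both genes. OsHox21 read 9.29 on both wild-type arrays and 9.29 and 9.30 on the transgenic ones, with an interval of -0.36 to 0.37. The remaining class I values were 0.12 for OsHox4, 0.11 for OsHox5, 0.25 for OsHox6, 0.43 for OsHox22, -0.24 for OsHox16 and -0.21 for OsHox20. In OsHox16 and OsHox20 both transgenic arrays lay below both wild-type arrays, as in the class III genes. Their second probe sets read -0.43 ± 0.13 and -0.34 ± 0.15 (limma, adjusted p = 0.145 and 0.313), so the sizes depend on the probe set. A dim set of OsHox16 marked as antisense read -0.04. OsHox24 read -0.04 and was dim, at percentile 10.9 in wild-type panicles.

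Whether the genotype effect depends on the tissue was tested as the panicle effect minus the leaf effect. It passed for 3 of 25 genes, or 12.0%, beside 3.84% of all probe sets (2.10% higher, 1.74% lower) and 6.50% of genes by their brightest probe set (4.07% higher, 2.42% lower), and all 3 differences were below 0. For OsHox1 it was -1.52 ± 0.18 (limma, adjusted p = 0.00309), from 1.19 in leaves and -0.33 in panicles. OsHox1 read 8.82 and 8.68 in wild-type panicles and 8.42 and 8.41 in transgenic panicles, so the order of the genotypes was opposite in the tissues, although the panicle difference alone did not pass (adjusted p = 0.25).

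OsHox2 showed the same opposition at a smaller size. Its panicle values were 8.40 and 8.27 in wild type and 7.91 and 7.79 in the overexpressor, and the difference of effects was -1.02 ± 0.20 (limma, adjusted p = 0.0249). Neither tissue passed by itself, and the call on the difference was lost without 6 of the 8 arrays in turn (adjusted p up to 0.121). For OsHox8 it was -1.71 ± 0.23 (adjusted p = 0.00554), with the limit that the leaf values were dim. The difference of effects was below 0 in 18 of the 25 genes, among them 7 of 8 class II genes and 5 of 5 class III genes, where it was below 0 in 51.5% of all probe sets and 46.5% of genes by their brightest probe set.

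**Figure D3:**
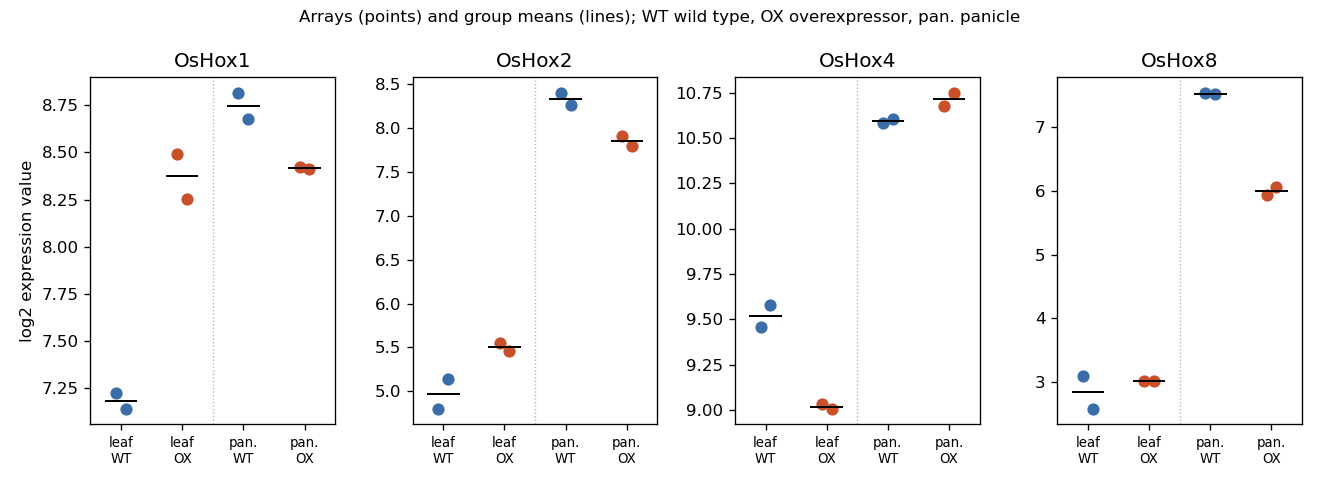
Log2 values of the OsHox genes that passed in a genotype contrast, with points for arrays and lines for group means (WT wild type, OX overexpressor, pan. panicle); each panel has its own value axis, which does not start at 0. OsHox1 and OsHox2 are higher in the overexpressor in leaves and lower in panicles, OsHox4 is lower in transgenic leaves, and OsHox8 is lower in transgenic panicles.

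The same arrays show in which tissue each gene gave signal. As deposited, 20 genes were higher and 3 lower in wild-type panicles than in wild-type leaves, which is 92.0% called. Of all probe sets 92.0% were called as well (84.1% higher, 7.87% lower), and of genes by their brightest probe set 94.6% (82.3% higher, 12.3% lower), and the median over all probe sets was 1.58. The genes were therefore also compared after a second quantile normalization of all arrays and after array medians were set equal. A call of the same sign under all 3 scalings was made for 15 genes. It was higher in panicles for 12, or 48.0%, against 49.2% of genes by their brightest probe set and 33.3% of all probe sets, and higher in leaves for 3, or 12.0%, against 12.3% and 7.87%.

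The panicle side held class I and class III genes with wide differences. OsHox14 went from percentile 3.77 in wild-type leaves to 93.1 in wild-type panicles, a difference of 7.85 with medians set equal and of 7.49 to 9.49 over the scalings. OsHox12 went from percentile 11.3 to 81.8, with a difference of 5.94, and OsHox21 from 30.3 to 75.7, with a difference of 4.21. Over the scalings OsHox12 differed by 5.36 to 7.58 and OsHox21 by 3.67 to 5.85. All 3 genes were dim in leaves, so under any 1 scaling the difference may be understated. Among class III genes the difference with medians set equal was 4.67 for OsHox33, 4.36 for OsHox10, 3.80 for OsHox9 and 2.72 for OsHox32, while OsHox29 at 0.43 did not hold under all scalings. OsHox7, OsHox8, OsHox20, OsHox28 and OsHox2 were also higher in panicles, by 3.42, 3.06, 2.82, 1.79 and 1.73 with medians set equal, and of these OsHox7, OsHox8 and OsHox28 were dim in leaves.

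The leaf side held OsHox22, OsHox15 and OsHox6. OsHox22, a gene induced by drought and abscisic acid, read 9.98 and 9.70 in wild-type leaves, at percentile 95.6, and 6.59 and 6.68 in wild-type panicles, at percentile 55.7. With medians set equal the log2 difference, panicle minus leaf, was -4.84 for OsHox22, -3.75 for OsHox15 and -2.0 for OsHox6. OsHox15 was dim in panicles, so its difference may be understated. The other 10 genes, among them OsHox1 and OsHox4, were not called with 1 sign under all scalings.

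The overexpressor gave a similar pattern, in a fit that shares its spread and 1 of its scalings with the wild-type comparison. Of the 12 genes higher in wild-type panicles 11 were also higher in transgenic panicles under all 3 scalings, and the 3 leaf genes were again higher in leaves. Including OsHox16 this made 4 leaf genes in the overexpressor. Among genes by their brightest probe set 49.8% were higher in panicles and 11.9% in leaves in the overexpressor, and among all probe sets 32.9% and 7.78%. The exception on the panicle side was OsHox2, which lay at percentiles 57.7 in leaves and 69.0 in panicles of wild type but at 65.5 and 65.8 in the overexpressor. OsHox2 was still higher in transgenic panicles as deposited (2.35) and with medians set equal (0.73). After quantile normalization of all arrays it read 0.03 (limma, adjusted p = 0.87). OsHox16, the class I gene at percentile 99.2 in wild-type leaves, was higher in leaves under all scalings in the overexpressor, and in wild type it was so under the 2 rescaled settings (as deposited -0.22, adjusted p = 0.162).

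**Figure D4:**
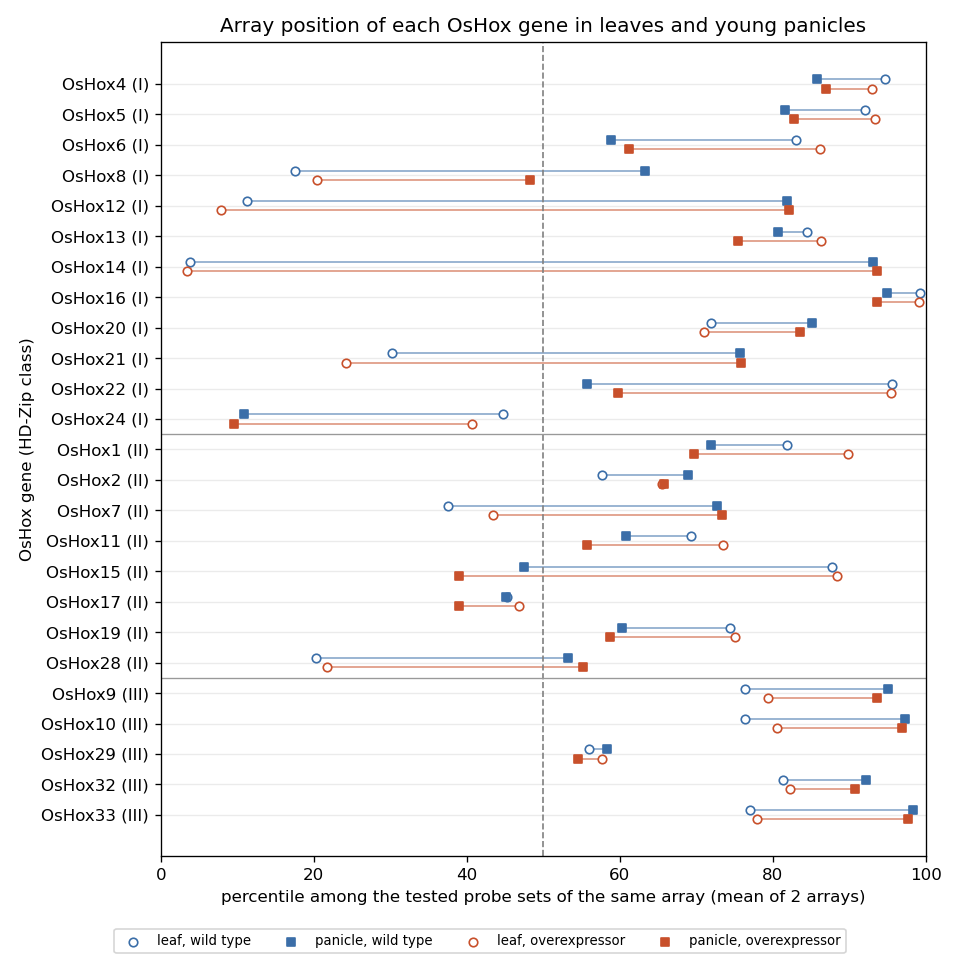
Percentile of each OsHox gene among the tested probe sets of the same array (mean of 2 arrays) in leaves (open circles) and panicles (filled squares), with wild type in blue, the overexpressor in orange and the array median as a dashed line. OsHox12, OsHox14 and OsHox21 run from the lower part of the leaf arrays to percentile 75.7 or higher in panicles in both genotypes, and OsHox22 and OsHox15 run the other way.

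Other homeobox genes were read beside the family. Of 9 measured HD-Zip class IV genes, which act in the epidermis, 1 rose in leaves and 1 in panicles. ROC2 rose by 0.65 ± 0.14 in leaves (limma, adjusted p = 0.0332), and ROC4 rose by 0.81 ± 0.16 in panicles (adjusted p = 0.0277). The difference of the tissue effects of ROC4 was 1.39 ± 0.22 (adjusted p = 0.0111), with the opposite sign to that of OsHox1, OsHox2 and OsHox8.

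No gene passed in either tissue among 9 KNOX genes, a family that includes meristem genes such as OSH1. HOS58, HOS59 and OSH45 of this list lay at percentiles 98.3, 98.8 and 93.3 in wild-type leaves, where OSH1 was dim. The KNOX medians were -0.04 in leaves and -0.06 in panicles. Of 7 WOX genes, a homeobox family of stem cell niches and organ margins, WOX6 fell by 0.83 in panicles, with an SE of 0.14 (adjusted p = 0.0144), and no other passed in either tissue. The difference of the tissue effects of WOX6 was -0.90 ± 0.19 (limma, adjusted p = 0.0384). Its sign was that of OsHox1, OsHox2 and OsHox8, although WOX6 was dim in leaves.

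Among 8 measured genes listed as partners or targets, none passed in either tissue. The gene matched to the name FC1 (LOC4336968) came nearest, at -0.58 ± 0.13 in panicles (limma, adjusted p = 0.0550), with a 95% interval of -0.87 to -0.28. Matching was by name alone, different genes can share a short name, and the listed name TB1 matched no gene. Whether this locus is the partner meant by the list was therefore not checked. HSFA2D, a heat stress factor that OsHox1 and OsHox28 are known to repress in the control of tiller angle, read 0.08 ± 0.11 in leaves and 0.03 ± 0.11 in panicles. EUI1 read -0.25 ± 0.20 in leaves and -0.30 ± 0.20 in panicles, with adjusted p = 0.605 and 0.551 (limma). The 95% intervals were -0.17 to 0.33 for HSFA2D in leaves and -0.75 to 0.15 for EUI1 in panicles.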

How the data were processed

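The deposited table held log2 expression values, made by the authors with RMA per the submitters' processing notes (version not given in the sources used here). That method subtracts background, equalizes distributions and combines probes, and the tissues did not share 1 distribution. Of 57381 probe sets, 123 AFFX and 64 reporter controls were left out, and 57194 were tested. The platform annotation paired 22436 with 1 gene, 95 with several and 34663 with none; the former covered 17905 genes. Names came from a RefSeq gene table through gene IDs, since the annotation itself names no OsHox gene. HD-Zip classes were assigned from general knowledge of the family, and sequences are not printed.

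The limma package (3.58.1, under R 4.3.3) fitted group means to the 8 arrays with eBayes and 4 residual degrees of freedom. Two-sided p-values received Benjamini-Hochberg adjustment over the 57194 probe sets. "Rose" and "fell" mean an adjusted p under 0.05. The leaf contrast was tested on simulated data with independent noise, which checks the fit but not the calls made here. Every member is named. Members, lists, tests and alternatives were chosen with earlier results of these data known. Of the members' probe sets, 6 are of the x_at kind, which may hybridise with similar transcripts, and 2 of the s_at kind. The x_at sets are those of OsHox7, OsHox11, OsHox17, OsHox19, OsHox20 and OsHox21, and the s_at sets those of OsHox8 and OsHox15. Of these genes, OsHox7, OsHox11, OsHox15, OsHox17 and OsHox19 are in class II, so signal of related transcripts may enter the class II counts. Names listed but not matched, including all 5 BELL genes, were not analysed here. The labels call the replicates biological and say no more of their source. Python 3.11.15 with pandas 2.3.3 and matplotlib 3.10.9 made the figures.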

Additional observations from a re-analysis of the deposited data

Results flagged for a closer look

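The genotype effect differed between tissues, by the test of the difference itself, in 3 OsHox genes. For OsHox1 the panicle effect minus the leaf effect was -1.52 (log2; limma, adjusted p = 0.00309), and it passed in all 11 other settings and without each of the 8 arrays in turn. For OsHox8 it was -1.71 (adjusted p = 0.00554), and it also passed in all 11 settings and without each array. For OsHox2 it was -1.02 (adjusted p = 0.0249), and it passed in 10 of 11 settings and without 2 of the 8 arrays in turn. OsHox1, OsHox2 and OsHox8 have 1 probe set each, so the setting that averages probe sets left their values unchanged. Groups of 2 arrays are too small to test a single array as an outlier.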

How the results depend on the processing

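With 2 arrays per group the calls near the threshold depend on the fit. OsHox1, OsHox4 and OsHox8 have 1 probe set each, so the setting that averages probe sets left their values unchanged. Leaving out a panicle array cannot change the size of a leaf difference, and the reverse holds for leaf arrays. OsHox1 in leaves and OsHox8 in panicles kept their call in all 12 other settings and without each array. The count of called OsHox genes in leaves was 1 instead of 2 with quantile normalization within each tissue, the 4 leaf arrays alone, array weights, a replicate block or a test against a 1.2-fold change, and 1 to 2 when arrays were left out, with OsHox4 lost. It was 3 with p adjusted over genes, where OsHox2 was gained. With quantile normalization of all arrays, or without wild-type leaf replicate 2, it was 2, with OsHox2 gained and OsHox4 lost. In panicles it was 2 instead of 1 with array weights or the replicate block, and 1 to 2 when arrays were left out. The tissue effect difference gave 2 to 4 genes. Deviations of arrays with the same replicate number correlated with r of 0.0066 to 0.0651, so the numbers were not taken as pairs. Dim genes limit what a fall can show.

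No called genotype difference changed sign. Uncalled values near 0 did. In leaves they were OsHox16 at 0.0385 with probe sets averaged and OsHox19 at -0.0084 with medians set equal. In panicles they were OsHox12 at 0.027 with quantile normalization of all arrays and 0.0261 within each tissue, OsHox19 at 0.0212 with probe sets averaged and OsHox21 at -0.0093 with medians set equal. The averages of OsHox16 and OsHox19 include a set marked as antisense. For OsHox16 that set was dim and read 0.32 in leaves, while the second set, bright in leaves, read -0.09. When arrays were left out, leaf values ran from -0.0749 to 0.44 for OsHox8, -0.0402 to 0.49 for OsHox13, -0.0868 to 0.0767 for OsHox14, -0.22 to 0.32 for OsHox15, -0.24 to 0.0106 for OsHox16, -0.20 to 0.44 for OsHox17, -0.14 to 0.19 for OsHox19, -0.22 to 0.0113 for OsHox20, -0.27 to 0.15 for OsHox22, -0.031 to 0.24 for OsHox28, -0.11 to 0.39 for OsHox29, -0.14 to 0.25 for OsHox32 and -0.24 to 0.35 for OsHox33. Panicle values ran from -0.0032 to 0.18 for OsHox7, -0.0466 to 0.0447 for OsHox12, -0.0036 to 0.0101 for OsHox21, -0.0963 to 0.0249 for OsHox24 and -0.16 to 0.61 for OsHox28.

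The wild-type tissue difference (panicle minus leaf) turned with the scaling. After quantile normalization of all arrays and with medians set equal it was -1.24 and -0.073 for OsHox1, -1.53 and -0.56 for OsHox4, -1.53 and -0.40 for OsHox5, -0.90 and -0.24 for OsHox11, -0.0226 and -0.0996 for OsHox17 and -1.55 and -0.79 for OsHox19. OsHox13 was -0.49 after quantile normalization, and OsHox16 was 0.40 with probe sets averaged. In that average the set marked as antisense, which was dim, read 1.19 and the second set 0.25. These alternatives change the scaling or the probe sets by construction.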
